A study of Mus musculus with 6 samples.

Results

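The genes described here are 40 genes of glutathione metabolism and of the NRF2 antioxidant response. They were listed by name, without a threshold on their values but with earlier results of these data known. Transcripts of 37 of the 40 were among the 11835 genes of the deposited table, and all 37 passed the filter on low values (6-library mean of 0.5 FPKM or more). The other 3, Gpx3, Gpx7 and Gstk1, were not analysed here. The cells were C2C12, a line of mouse myoblasts that fuse into myotubes in medium with horse serum. One group of 3 libraries was from cells transfected with a negative control siRNA (NC siRNA, siNC), and the other 3 were from cells transfected with siRNA against Cnn3 (CNN3 siRNA, siCNN3), which encodes the actin-binding protein calponin 3. Both groups thus carried a transfected siRNA, both are of 1 cell line, and both are labelled mouse myotube. The labels do not say whether the 3 libraries of a group were from separate transfections or which CNN3 siRNA was used, so p-values measure the spread between libraries, which may be technical.

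Glutathione is a tripeptide of glutamate, cysteine and glycine that cells make in a pair of ligase steps, and its thiol serves as the electron donor of glutathione peroxidases and as the tag that glutathione transferases place on reactive molecules. The oxidised form is returned to glutathione by glutathione reductase with NADPH, which the pentose phosphate pathway and the NADP-dependent isocitrate dehydrogenases supply. The transcription factor NRF2 (gene Nfe2l2) turns on many of these enzymes, together with the thioredoxin system and quinone reductase, by binding an antioxidant response element with small MAF proteins. KEAP1 holds NRF2 in the cytosol and has it degraded until oxidants or electrophiles modify its cysteines. In muscle, this network is known for handling the peroxides that contraction and mitochondrial respiration produce.

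Values are FPKM (fragments per kilobase of transcript, scaled to the mapped fragments of each library), as estimated for each transcript by the authors and summed per gene here. Read numbers are not given, so the depth is unknown and no counting error can be stated. Differences are log2 fold changes of FPKM + 1, siCNN3 minus siNC, from limma across all 11593 tested genes, and a gene was called when its Benjamini-Hochberg adjusted p was below 0.05. Cnn3 itself was at 62.3 FPKM on average for siNC and 27.9 FPKM for siCNN3, with siCNN3 replicate 2 the least reduced (39.2 FPKM), and was not called (limma adjusted p of 0.0669). Of 22 skeletal muscle markers 17 were listed, with a summed level between 220.5 and 273 FPKM in siNC and between 132 and 145 FPKM in siCNN3. Of 16 tested ones 8 were called lower (all genes 0.336%). In log2 fold change 15 were below 0 and 1 was above it, at 0.88. The defining markers Ttn, Neb and Actn2 had no transcript in the table. Of 14 blood and immune markers 6 were listed, 4 of them globin genes, and Ptprc, Adgre1 and Csf1r had no transcript in the table. Their summed level ran between 244 and 679 FPKM in siNC and between 65.8 and 90.8 FPKM in siCNN3, highest in siNC replicate 2, and 2 of 6 were called lower. The 6 listed fibroblast markers of 8 summed to between 1055 and 1446 FPKM in siNC and between 698 and 860.3 FPKM in siCNN3, with 6 of 6 below 0 in log2 fold change, 3 without overlap (all genes 9.35%) and 0 called. Of 6 adipocyte markers 2 were listed, Fabp4, which was called lower, and Pparg, which was not called, and their sum lay between 10.9 and 13.9 FPKM in siNC and between 5.04 and 6.62 FPKM in siCNN3. Of 6 endothelial markers 1 was listed, at most 1.37 FPKM. Of 28 interferon response genes, 20 were called higher (all genes 1.73%). Their summed level ran between 547 and 1454 FPKM in siNC and between 5338 and 8308 FPKM in siCNN3. The part of these shifts in the antioxidant genes was not tested, and in bulk RNA fewer cells of a kind and less RNA per cell cannot be told apart.

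The summed level of the antioxidant genes differed by less than its SD between the groups, at 2919 ± 202 FPKM for siNC compared with 2933 ± 27.1 FPKM for siCNN3 (SD, n = 3 each). Of the 37 tested members 1 was called lower, Idh1, and 0 were called higher (background 0.336% lower and 1.73% higher), by limma with Benjamini-Hochberg adjustment, so 2.70% of members were called, compared with 2.06% of all genes tested. At an unadjusted limma p below 0.05 there were 8 lower members (Idh1, Gstt1, Gstm1, Gstt3, Gstm5, Oplah, Sod2 and Mgst3) and 3 higher members (Srxn1, Nfe2l2 and Ggct), or 29.7% of the members against 16.1% of all genes (6.14% lower and 9.94% higher). Their number, 11 with all libraries, was 5 without siCNN3 replicate 1, 5 without siCNN3 replicate 2 and 7 when siNC replicate 3 was the one left out. The 3 siCNN3 values lay entirely below the 3 siNC values for 8 members and entirely above them for 4, together 32.4% of the members, where 23.1% of all genes did so. The median log2 fold change was 0.075 over the members and 0.028 over all genes, with 22 members above 0 and 15 below it, where 54.0% of all genes were above 0. After quantile normalization the split was 16 above and 21 below, and without siNC replicate 1, the library with the lowest value of its group for 20 of 37 members, it was 18 and 19.

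**Figure D1:**
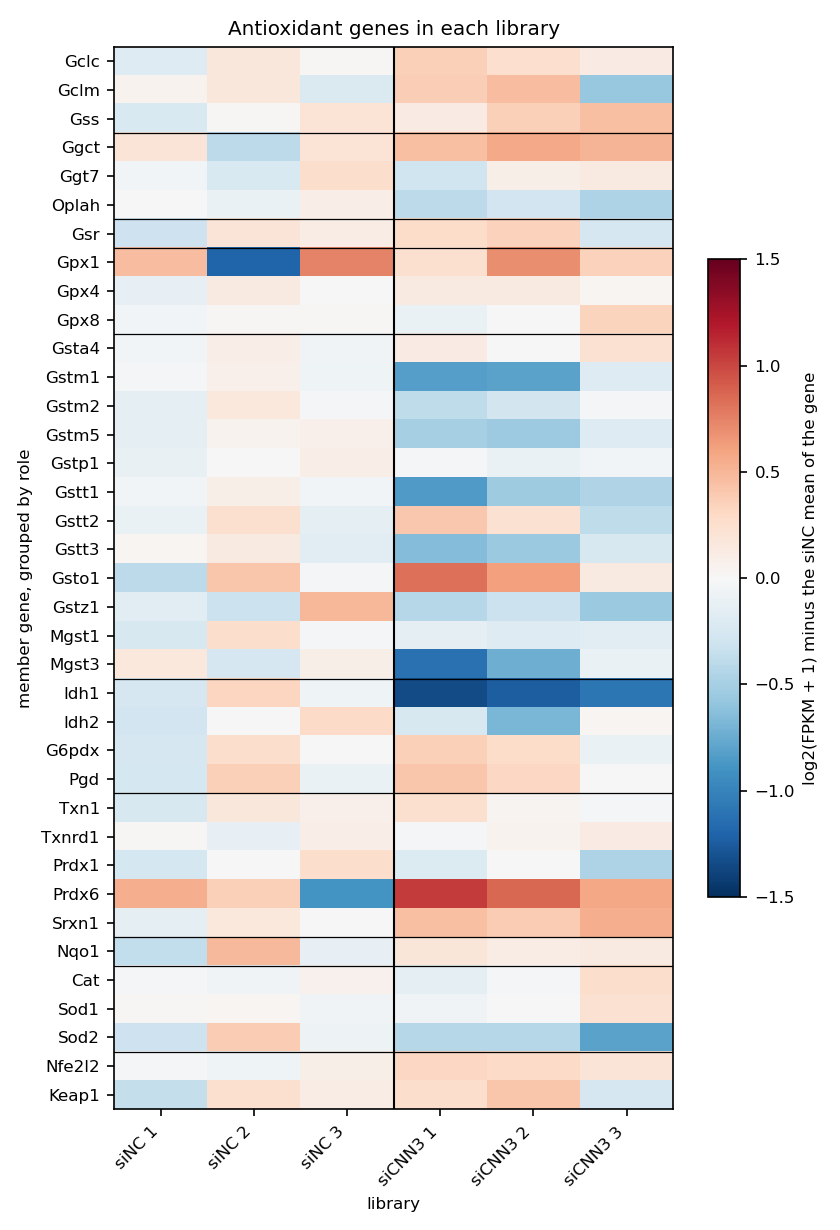
Each row is 1 of the 37 tested members, ordered by role, and each column 1 library. Colour gives log2(FPKM + 1) minus the mean of the gene in siNC, with red above and blue below it. The row of Idh1 is the darkest blue across the 3 siCNN3 libraries. Several rows are lighter blue there, among them Gstm1, Gstm5, Gstt1, Gstt3, Mgst3 and Sod2, with Gstm1 and Mgst3 palest in siCNN3 replicate 3. Gpx1 in siNC replicate 2 and Prdx6 in siNC replicate 3 stand out as low within siNC.

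**Figure D2:**
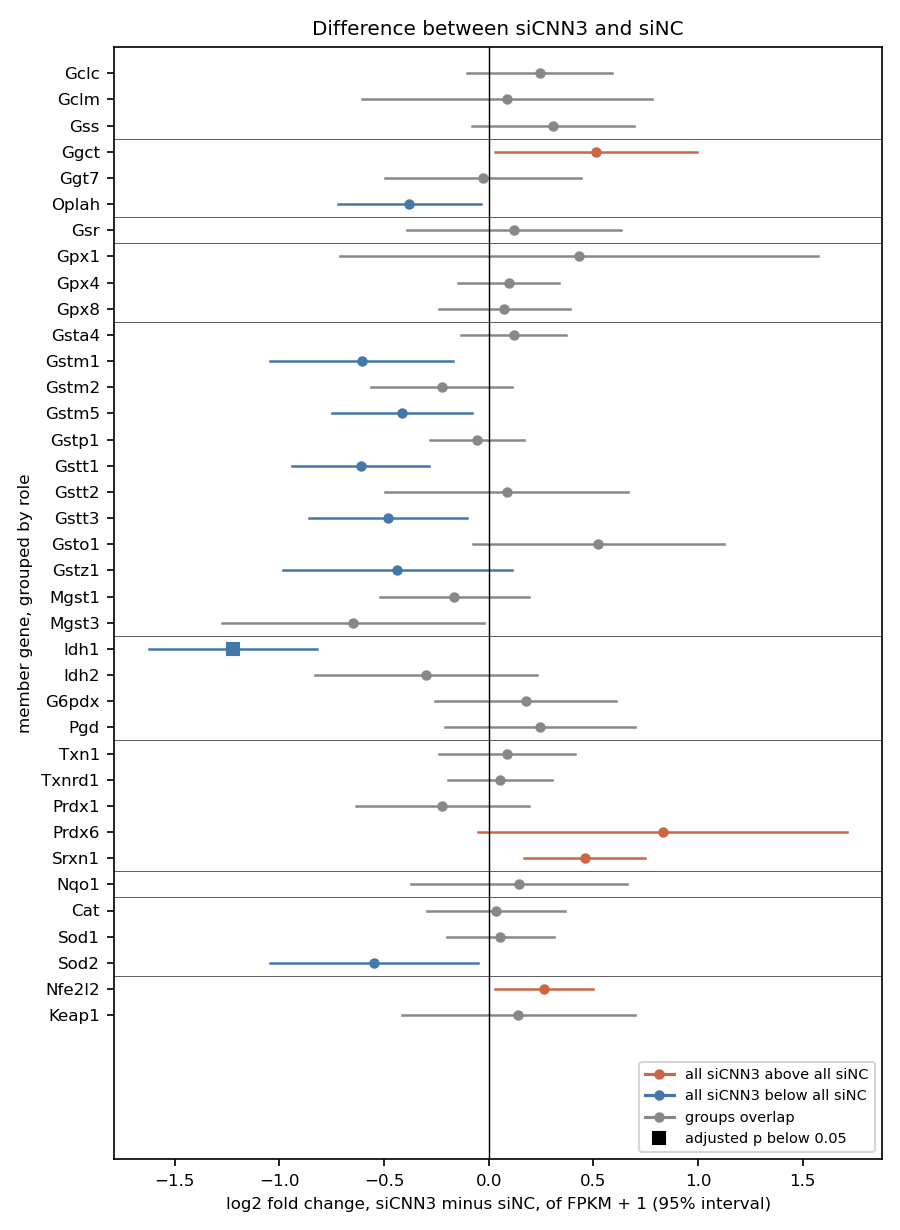
The horizontal axis is the log2 fold change of FPKM + 1, siCNN3 minus siNC, and each point is a member with its 95% interval from limma. Members whose 3 siCNN3 values lie entirely above (orange) or below (blue) the 3 siNC values are coloured, and the square marks Idh1 (-1.22), the member called at an adjusted p below 0.05.

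FPKM is a level per length, so the members can be ranked. Over the 6 libraries 9 members had a mean above 100 FPKM, 23 were between 10 and 100 FPKM and 5 were below 10 FPKM. Txn1 (438 FPKM), Gpx4 (319 FPKM) and Gstp1 (252 FPKM) led. The genes for making glutathione were far lower, with Gclc at 14.97 FPKM and Gclm at 7.04 FPKM. Libraries of the same group differed most in Gpx1, whose highest siNC value was 3.92 times the lowest, followed by Gstt2 in siCNN3 (2.83 times), Prdx6 in siNC (2.81 times) and Gclm in siCNN3 (2.30 times).

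NRF2 binds antioxidant response elements, whose core is TGACNNNGC, and the RefSeq promoter windows of GRCm38.p6 (250 bases before to 50 after each start) were searched for these letters on both strands. Of 40 members 34 had a window, and 11 of these genes held the core in any of their windows, or 32.4%. Among tested genes with a window, 35.5% of the 31 members and 16.9% of all genes held it. Counted by window and not by gene, 12.4% of all 32851 windows did. The 11 members were G6pdx, Gclm, Ggct, Gstm5, Mgst1, Nfe2l2, Pgd, Prdx1, Sod1, Srxn1 and Txnrd1. The median log2 fold change was 0.087 over the 11 with the core and -0.042 over the 20 tested members whose window lacked it. The first is the value of Gclm, whose sign changed in some fits with a library left out. A match is only a run of letters and no measure of NRF2 binding. Elements outside the window were not searched, so a gene without a match may still have one. The matches of those members whose values are given in full are shown with 10 bases on either side and the 9-base core in capitals, 5′ to 3′ on the strand named, to let the cores be compared.
Gclm (chr3:122245413-122245441, - strand): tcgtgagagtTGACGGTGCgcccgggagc
Ggct (chr6:54992844-54992872, - strand): tctctgtgctTGACGCTGCtggcgtggat
Ggct (chr6:54993023-54993051, + strand): tcccgcccacTGACGTCGCttttctattg
Gstm5 (chr3:107895802-107895830, + strand): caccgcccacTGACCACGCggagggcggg
Nfe2l2 (chr2:75704885-75704913, - strand): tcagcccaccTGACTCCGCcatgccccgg
Srxn1 (chr2:152105542-152105570, - strand): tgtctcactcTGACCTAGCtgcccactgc
Txnrd1 (chr10:82859104-82859132, - strand): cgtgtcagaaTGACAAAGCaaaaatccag

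The core began 28 bases after the start site in Srxn1, at position -42 in Gstm5, -92 in Txnrd1 and -134 in Gclm, counted from the RefSeq start site with negative positions before it. Ggct had a match on each strand, and the match of Nfe2l2 was at -240, near the far edge of its window.

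Nfe2l2, the gene of NRF2, was higher in all siCNN3 libraries than in any siNC library, by a margin that did not pass the adjusted test. It was at 79.3, 77.2, 86.0 FPKM over siNC replicates 1 to 3, against 101, 98.4, 92.5 FPKM over siCNN3 replicates 1 to 3 (chromosome 2 of GRCm38, 75675513 to 75704641). The means were 80.8 ± 4.59 FPKM and 97.1 ± 4.16 FPKM (SD, n = 3), a log2 fold change of 0.26 (95% interval 0.028 to 0.50, limma adjusted p of 0.263) that became 0.13 after quantile normalization. The groups did not overlap, which for 3 libraries against 3 gives an exact two-sided permutation p of 0.1, the smallest that this design allows. Keap1, which encodes the inhibitor of NRF2, was at 9.35, 14.7, 13.4 FPKM over siNC against 14.9, 16.6, 10.2 FPKM over siCNN3, and its groups overlapped (chromosome 9, 21229730 to 21239361). Its log2 fold change of 0.14 (limma adjusted p of 0.809) was smaller than its standard error of 0.234.

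The genes of glutathione synthesis were not called, and each of the 3 had a log2 fold change above 0. Gclc, the catalytic subunit of glutamate-cysteine ligase and the rate-limiting enzyme of the pathway, was at 11.8, 15.4, 13.8 FPKM over siNC against 17.6, 16.4, 14.8 FPKM over siCNN3 (chromosome 9, 77754535 to 77794485). The ranges overlapped in siNC replicate 2 and siCNN3 replicate 3, and the log2 fold change was 0.24 (95% interval -0.10 to 0.59, limma adjusted p of 0.464), or 0.15 without siNC replicate 1 and 0.15 after quantile normalization. Gclm, the modifier subunit of the same ligase, was at 6.84, 7.55, 5.52 FPKM over siNC against 8.77, 9.45, 4.12 FPKM over siCNN3 (chromosome 3, 122245557 to 122270732). Replicates 1 and 2 of siCNN3 were above all siNC libraries and replicate 3 was below all of them, so the mean difference was 0.087 on the log2 scale (limma adjusted p of 0.916), and its sign changed when siNC replicate 3, siCNN3 replicate 1 or siCNN3 replicate 2 was left out. The level of Gclm per level of Gclc was 0.582, 0.490 and 0.400 in siNC and 0.497, 0.577 and 0.278 in siCNN3, lowest in siCNN3 replicate 3. Gss, glutathione synthetase, had a log2 fold change of 0.31 (limma adjusted p of 0.405).

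Of the enzymes that take glutathione apart or recycle its pieces, Ggct was higher and Oplah lower in every siCNN3 library, both short of the threshold. Ggct, a gamma-glutamylcyclotransferase, was at 1.52, 0.687, 1.54 FPKM over siNC against 2.02, 2.29, 2.15 FPKM over siCNN3 (chromosome 6, 54982580 to 54992950), with a log2 fold change of 0.51 (95% interval 0.030 to 0.99, limma adjusted p of 0.284) that was 0.32 without siNC replicate 2. Oplah, the oxoprolinase that turns oxoproline back into glutamate, was at 3.58, 3.24, 3.87 FPKM over siNC against 2.46, 2.74, 2.32 FPKM over siCNN3 (chromosome 15, 76296601 to 76328015), with -0.38 on the log2 scale (95% interval -0.72 to -0.039, limma adjusted p of 0.265). Both were among the 5 members with a mean below 10 FPKM, where adding 1 to the FPKM shrinks the fold change most, and with a pseudocount of 0.1 that of Ggct was 0.82. Ggt7, a member of the gamma-glutamyltransferase family, had -0.026 (limma adjusted p of 0.964).

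Glutathione reductase and the peroxidases that use glutathione were not called. Gsr, the reductase, was at 12.8, 18.4, 17.5 FPKM over siNC against 19.7, 20.6, 13.2 FPKM over siCNN3 (chromosome 8, 33652523 to 33698163), and its highest and lowest libraries were in siCNN3 and siNC, respectively, with overlapping ranges (log2 fold change 0.12, limma adjusted p of 0.820). Gpx4, the selenoenzyme that reduces lipid peroxides, was the second most abundant member, at 281, 337, 307 FPKM over siNC against 337, 337, 313 FPKM over siCNN3 (chromosome 10, 80047166 to 80056439). Its log2 fold change of 0.10 had a 95% interval of -0.14 to 0.34 (limma adjusted p of 0.689), and leaving out replicate 1 or 2 of siNC moved it to 0.032 or 0.16. Of the 50-base stretches of its transcripts, 51.4% also occur in transcripts of 2 other genes, among them the pseudogene Gpx4-ps2, so its reads could be split. Gpx8, a peroxidase of the endoplasmic reticulum, ran from 153 to 208 FPKM over the 6 libraries (log2 fold change 0.075). Gpx1, the cytosolic peroxidase, was at 133, 41.5, 163 FPKM over siNC against 115, 158, 124 FPKM over siCNN3, and siNC replicate 2 stood far below the other 5 libraries. Its log2 fold change of 0.43 had the widest 95% interval of the 37 members (-0.71 to 1.57, limma adjusted p of 0.708).

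Among the glutathione transferases, which attach glutathione to electrophiles, 4 of the 6 mu and theta class genes lay below siNC in every siCNN3 library, although none of the 12 tested transferase members was called (0 of 12 at the adjusted threshold, 5 lower and 0 higher at an unadjusted limma p below 0.05, where 6.14% of all genes were lower). Their log2 fold changes had their median at -0.32, 9 of 12 were below 0, and 5 lay entirely below siNC in siCNN3, as 9.35% of all genes did. With few genes in each class, these shares are a description. The theta class gene Gstt1 was at 40.7, 44.5, 40.7 FPKM over siNC replicates 1 to 3, against 22.8, 28.6, 30.3 FPKM over siCNN3 replicates 1 to 3 (chromosome 10, 75783813 to 75798584). The groups were fully apart, and the siCNN3 mean was 65.0% of the siNC mean (log2 fold change -0.61, standard error 0.139, limma adjusted p of 0.0857). Gstt3, of the same class and also on chromosome 10 (75774115 to 75781414), was at 17.4, 18.7, 15.1 FPKM over siNC against 10.5, 11.3, 14.2 FPKM over siCNN3, again without overlap (log2 fold change -0.48, limma adjusted p of 0.199). The mu class gene Gstm1 was at 96.4, 103, 93.7 FPKM over siNC against 54.6, 55.8, 85.4 FPKM over siCNN3 (chromosome 3, 108012255 to 108017973), where siCNN3 replicates 1 and 2 lay far below siNC and replicate 3 only just below it. Its log2 fold change was -0.61 (95% interval -1.04 to -0.17, limma adjusted p of 0.171), and without siCNN3 replicate 3 it was -0.81 and passed (limma adjusted p of 0.0123). Without that library Gstt1 passed as well (limma adjusted p of 0.0495), in a fit that called 605 of all genes against 239 with all libraries. With any other single library left out neither passed (limma adjusted p of 0.268 to 0.501 for Gstm1 and 0.150 to 0.272 for Gstt1). Gstm5 was at 27.4, 31.2, 31.7 FPKM over siNC against 21.0, 20.2, 26.1 FPKM over siCNN3 (chromosome 3, 107895821 to 107898686), with -0.41 on the log2 scale (limma adjusted p of 0.216). Over the 6 mu and theta members together, which were grouped after their values were seen, the summed level was 239 ± 14.9 FPKM for siNC compared with 172 ± 30.6 FPKM for siCNN3 (SD, n = 3 each).

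The remaining transferases lay on both sides of 0. Gstm2, also of the mu class, had -0.22 on the log2 scale (adjusted p = 0.491), and Gstt2, which ran from 0.642 to 1.82 FPKM, had 0.085 (adjusted p = 0.897). Mgst3, a membrane-bound transferase, was at 46.5, 34.8, 44.1 FPKM over siNC against 18.6, 24.6, 38.6 FPKM over siCNN3 (chromosome 1, 167371966 to 167393841), where siCNN3 replicate 3 lay within siNC (log2 fold change -0.65, limma adjusted p of 0.295, and -0.41 without siCNN3 replicate 1). Mgst1, a related membrane protein, had -0.16 (adjusted p = 0.636). Gstz1, an enzyme of tyrosine breakdown, was at 10.0, 8.953, 16.5 FPKM over siNC against 8.25, 8.952, 7.47 FPKM over siCNN3 (log2 fold change -0.44, limma adjusted p of 0.403). Its siCNN3 replicate 2 lay barely below siNC replicate 2, so the groups were all but touching, and siNC replicate 3 was far above the rest. In the other direction lay Gsto1, an omega class enzyme, at 55.2, 97.6, 71.0 FPKM over siNC against 129, 112, 79.8 FPKM over siCNN3 (log2 fold change 0.52, limma adjusted p of 0.365). Gsta4, an alpha class enzyme that acts on the lipid aldehyde hydroxynonenal, had 0.12 and the abundant pi class Gstp1 had -0.057, with 95% intervals of -0.13 to 0.37 and -0.28 to 0.17. Reads of some of these genes could also match other genes. Of the 50-base stretches of Gstp1, 62.3% occur in transcripts of other genes such as Gstp2, as do 19.9% of those of Gstm1, 20.6% of those of Gstt3 (with Gm20441 and other genes not named as transferases) and 8.30% of those of Gstm2, compared with 0% for Gstt1 and Gstm5.

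**Figure D3:**
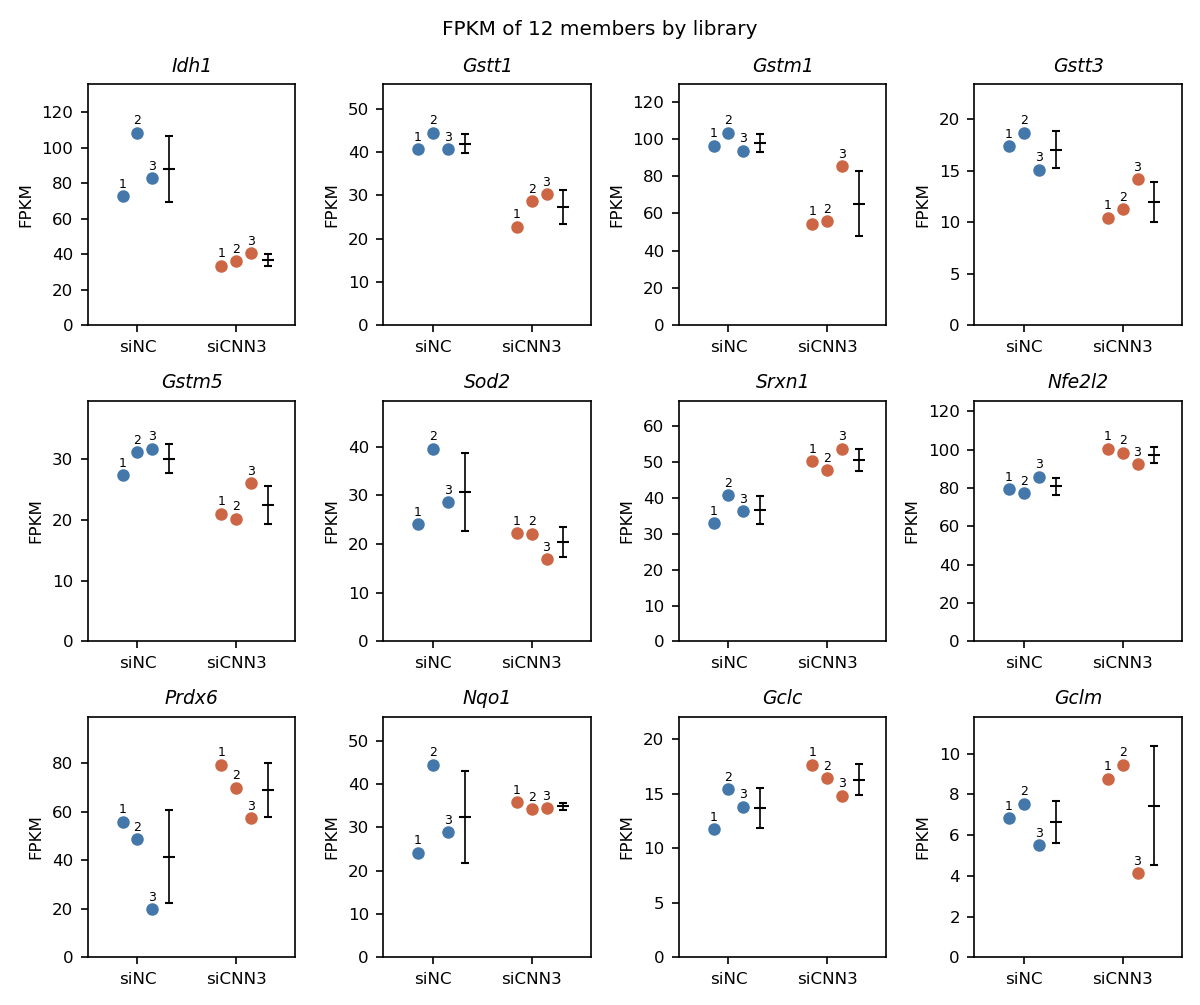
Each panel shows 1 member, with FPKM on a linear axis from 0, a point for each library (numbered by replicate) and, in black, the mean and SD of the 3 libraries of siNC or siCNN3. Idh1 is near 36.7 FPKM in siCNN3 against 87.9 FPKM in siNC, while for Nqo1, Gclc and Gclm the groups overlap.

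Idh1 fell in siCNN3 and was the member with the largest difference between the groups. It encodes the cytosolic and peroxisomal isocitrate dehydrogenase, which makes NADPH while turning isocitrate into oxoglutarate (chromosome 1 of GRCm38, 65158616 to 65186500). The gene was at 72.6, 108, 82.8 FPKM over siNC replicates 1 to 3, against 33.6, 36.1, 40.5 FPKM over siCNN3 replicates 1 to 3. The highest siCNN3 library was well below the lowest siNC library, and the means were 87.9 ± 18.4 FPKM and 36.7 ± 3.49 FPKM (SD, n = 3), so that siCNN3 held 41.8% of the siNC level. The difference was -1.22 on the log2 scale, standard error 0.168 (95% interval -1.62 to -0.82, limma adjusted p of 0.0221). One transcript of 2302 nucleotides held 95.4% of its FPKM, and 0% of its 50-base stretches occur in another gene. The direction and size held with any single library left out, from -1.35 to -1.06, but the call was lost on leaving out replicate 3 of siNC or replicate 1 or 2 of siCNN3 (limma adjusted p of 0.105, 0.1003 and 0.110), fits in which 20, 46 and 33 of all genes were called. The call was lost too with the replicate number as a block (limma adjusted p of 0.0558), where 68 of all genes were called.

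The other enzymes that supply NADPH were not called. Idh2, the mitochondrial counterpart of Idh1, was at 33.8, 41.4, 50.7 FPKM over siNC against 34.8, 25.4, 42.1 FPKM over siCNN3, a log2 fold change of -0.30 (limma adjusted p of 0.559). The ratio of Idh2 to Idh1 FPKM was 0.465, 0.382 and 0.612 in siNC and 1.04, 0.703 and 1.04 in siCNN3, without overlap. G6pdx and Pgd, the dehydrogenases of the oxidative pentose phosphate pathway, had log2 fold changes of 0.18 and 0.25 (limma adjusted p of 0.687 and 0.576).

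In the thioredoxin system, which reduces peroxides and protein disulphides in parallel with glutathione, Srxn1 and Prdx6 were higher in every siCNN3 library, and no gene was called. Srxn1, sulfiredoxin, which rescues overoxidised peroxiredoxins and is a target of NRF2, was at 33.0, 40.8, 36.3 FPKM over siNC replicates 1 to 3, against 50.3, 47.8, 53.8 FPKM over siCNN3 replicates 1 to 3 (chromosome 2, 152105516 to 152111376). All siCNN3 libraries were above all siNC libraries, with means of 36.7 ± 3.92 FPKM and 50.6 ± 3.00 FPKM (SD, n = 3) and a log2 fold change of 0.46 (standard error 0.122, limma adjusted p of 0.126). Prdx6, a peroxiredoxin that works with glutathione, was at 55.9, 48.7, 19.9 FPKM over siNC against 79.4, 69.9, 57.3 FPKM over siCNN3 (chromosome 1, 161240112 to 161251219). Its groups did not overlap, but siNC replicate 3 alone was well below the other siNC libraries, and the log2 fold change of 0.83 became 0.38 without it (adjusted p = 0.334 with it and 0.508 without it, limma). Txnrd1, thioredoxin reductase and another NRF2 target, was at 114, 104, 121 FPKM over siNC against 111, 117, 123 FPKM over siCNN3 (chromosome 10, 82833951 to 82897712), and its log2 fold change of 0.054 had a 95% interval of -0.19 to 0.30 (limma adjusted p of 0.838). Txn1, thioredoxin, was the most abundant member, between 358 and 501 FPKM, with a log2 fold change of 0.087 (limma adjusted p of 0.796). Prdx1, an abundant peroxiredoxin, had -0.22 (limma adjusted p of 0.579).

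Nqo1, the quinone reductase whose expression is widely used as a readout of NRF2, was at 24.1, 44.4, 28.8 FPKM over siNC replicates 1 to 3, against 35.8, 34.1, 34.4 FPKM over siCNN3 replicates 1 to 3 (chromosome 8, 107388225 to 107403206). The siCNN3 libraries lay close together and inside the range of siNC, whose replicate 2 was the highest of all. The log2 fold change was 0.14 with a 95% interval of -0.37 to 0.66 (limma adjusted p of 0.787), and without siNC replicate 1 it was -0.040.

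Of the enzymes that remove superoxide and hydrogen peroxide directly, Sod2 was lower in every siCNN3 library, and none of the 3 was called. Sod2, the manganese superoxide dismutase of mitochondria, was at 24.1, 39.6, 28.6 FPKM over siNC replicates 1 to 3, against 22.2, 22.2, 16.8 FPKM over siCNN3 replicates 1 to 3 (chromosome 17, 13006846 to 13040063). The groups did not overlap, though the lowest siNC and the highest siCNN3 library lay close to each other, and the log2 fold change of -0.55 was not called (95% interval -1.05 to -0.053, limma adjusted p of 0.267) and was -0.36 without siNC replicate 2. Sod1, the cytosolic copper and zinc enzyme, had 0.056 (95% interval -0.20 to 0.31) and Cat, catalase, had 0.036 (95% interval -0.29 to 0.37). Of the 50-base stretches of Sod1, 23.1% also occur in transcripts of the gene model Gm8566.

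Some of these gene values rest on transcript estimates that differ between libraries of a group. The 37 listed members had 77 transcripts, and 18 members had a single one. In Gpx1, both transcripts were low in siNC replicate 2. The 787-nucleotide transcript was at 37.2, 2.32, 52.3 FPKM over siNC against 39.5, 49.96, 29.5 FPKM over siCNN3. In Gss, the 1963-nucleotide transcript was at 11.1, 2.44, 14.8 FPKM over siNC against 14.1, 15.6, 17.9 FPKM over siCNN3, and the 1724-nucleotide transcript was listed at 10.0 FPKM in siNC replicate 2 and at 0 in the other 5 libraries. The sum of Gss in that library was 13.3 FPKM, close to the others. In Gstm2, a transcript of 854 nucleotides was listed at 0 in siNC replicates 1 and 2 and in siCNN3 replicate 1 and at 15.4, 11.9 and 22.9 FPKM in the other 3. The 611-nucleotide transcript of Prdx1 was at 8.23, 5.66, 103 FPKM over siNC against 2.58, 75.4, 5.54 FPKM over siCNN3. In Gss and Gstm2 one transcript was high where the other was low, and the gene sums moved less. In Prdx1 the leading transcript held its level in siNC replicate 3, so the gene sum was highest there (300.4 FPKM). In all, 4 member transcripts, of Gss, Gstm2 and Mgst1, were listed at 0 somewhere while reaching 1 FPKM or more elsewhere, and a 0 can then be a failed estimate.

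**Figure D4:**
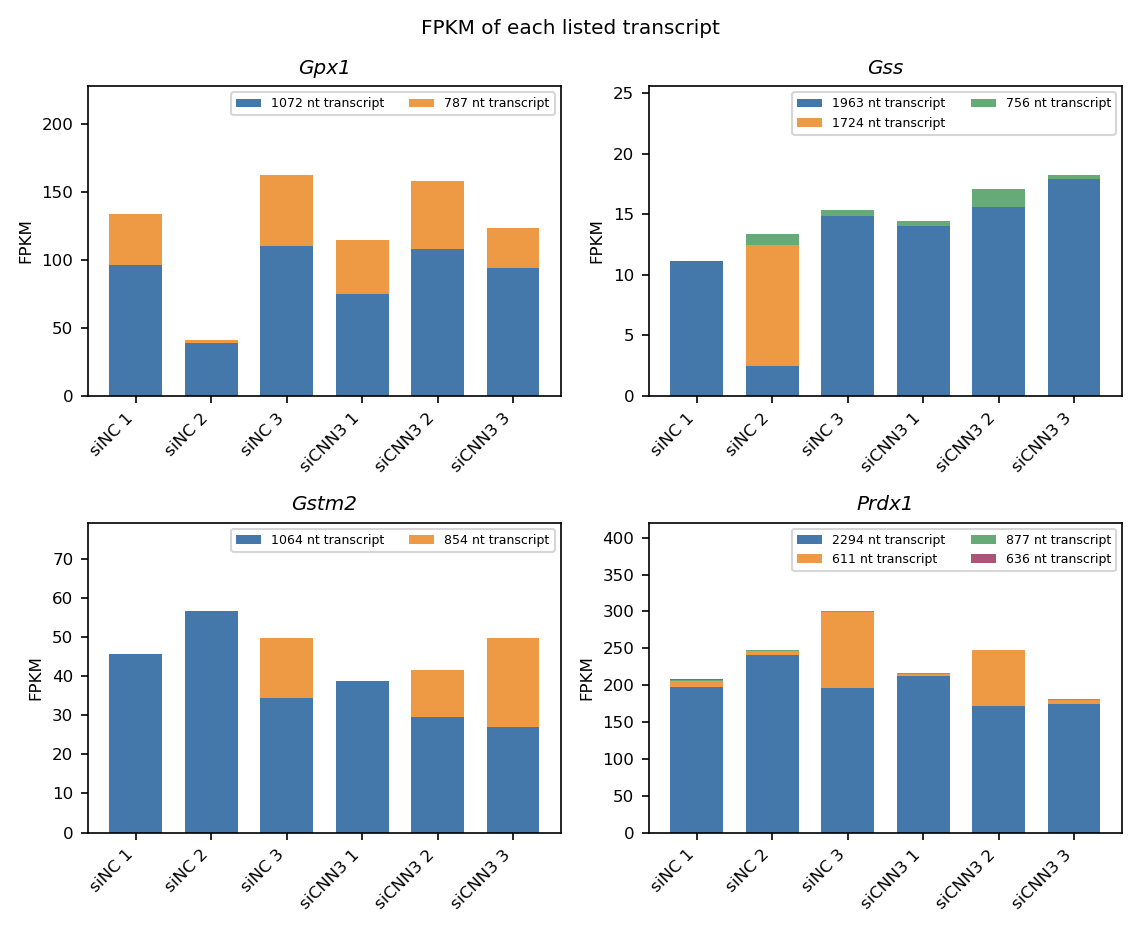
Bars give FPKM, on a linear axis from 0, of each listed transcript of Gpx1, Gss, Gstm2 and Prdx1, stacked to the sum of the gene in each of the 6 libraries. The short Gpx1 transcript nearly vanishes in siNC replicate 2, and the colours change between libraries of a group in Gss, Gstm2 and Prdx1 while the stack of Gss keeps a similar height.

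A wider list of 93 other genes of glutathione, thioredoxin and NRF2 biology had 80 tested members, and 3 rose and 0 fell at the adjusted threshold (3.75% called, compared with 2.06% of all genes). The list was otherwise near the background, with 22.5% of its genes not overlapping between the groups against 23.1% of all genes, 18.8% against 16.1% at an unadjusted limma p below 0.05, and a median log2 fold change of 0.030. The 3 that rose were Chac1, Slc3a2 and Sqstm1. Chac1, an enzyme that degrades glutathione in the cytosol, was at 4.37, 7.92, 6.56 FPKM over siNC replicates 1 to 3, against 54.2, 52.2, 40.0 FPKM over siCNN3 replicates 1 to 3 (chromosome 2, 119351229 to 119354381), with no overlap and a log2 difference of 2.79, SE 0.221 (limma adjusted p of 0.00473). It was called with any library left out. Slc3a2, the heavy chain that amino acid exchangers share, was at 68.9, 69.0, 69.7 FPKM over siNC against 150.3, 149, 115 FPKM over siCNN3 (chromosome 19, 8706882 to 8723369), with 0.98, SE 0.129 (limma adjusted p of 0.0193). Sqstm1, an autophagy receptor that binds KEAP1, was at 198, 243, 204 FPKM over siNC against 413, 350.2, 339 FPKM over siCNN3 (chromosome 11, 50199366 to 50210827), with 0.77, SE 0.126 (limma adjusted p of 0.0361). Of the fits with 1 library left out, Slc3a2 was called only in that without siCNN3 replicate 3, and Sqstm1 only in those lacking siCNN3 replicate 3 or siNC replicate 2. The adjusted p reached 0.110 and 0.170 in the others, and Sqstm1 was not called by limma without a trend either (limma adjusted p of 0.0640). With the replicate number as a block neither gene was called (limma adjusted p of 0.0706 for Slc3a2 and 0.124 for Sqstm1).

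Slc7a11, which pairs with Slc3a2 to import cystine for glutathione synthesis, was at 0.187, 0.452, 0.314 FPKM over siNC replicates 1 to 3, against 8.06, 6.50, 1.42 FPKM over siCNN3 replicates 1 to 3 (chromosome 3, 49892526 to 50443614). Each siCNN3 library was above each siNC library, but siCNN3 replicate 3 was far below the other siCNN3 libraries, and the log2 fold change of 2.06 was not called (limma adjusted p of 0.0904). Since all siNC values were below 0.5 FPKM, this value depends on the pseudocount and was 3.43 with a pseudocount of 0.1 (limma adjusted p of 0.0599). With the pseudocount of 1 and without siCNN3 replicate 3 it was 2.65 (limma adjusted p of 0.00199). Chac1, Slc7a11 and Slc3a2 are also known targets of the stress factor ATF4, and on a list of 20 such targets, which holds these 3 genes, 8 of 19 tested genes were called higher, where 1.73% of all genes were. Because that list shares these genes, its count is not separate evidence about them. Hmox1, heme oxygenase and another gene that NRF2 turns on, was at 43.2, 17.6, 19.8 FPKM over siNC against 39.6, 38.4, 94.9 FPKM over siCNN3 (chromosome 8, 75093621 to 75100589). Its groups overlapped in siNC replicate 1, and the log2 fold change was 1.06 (95% interval -0.0081 to 2.12, limma adjusted p of 0.313). Without siCNN3 replicate 3, its highest library, it was 0.63.

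**Figure D5:**
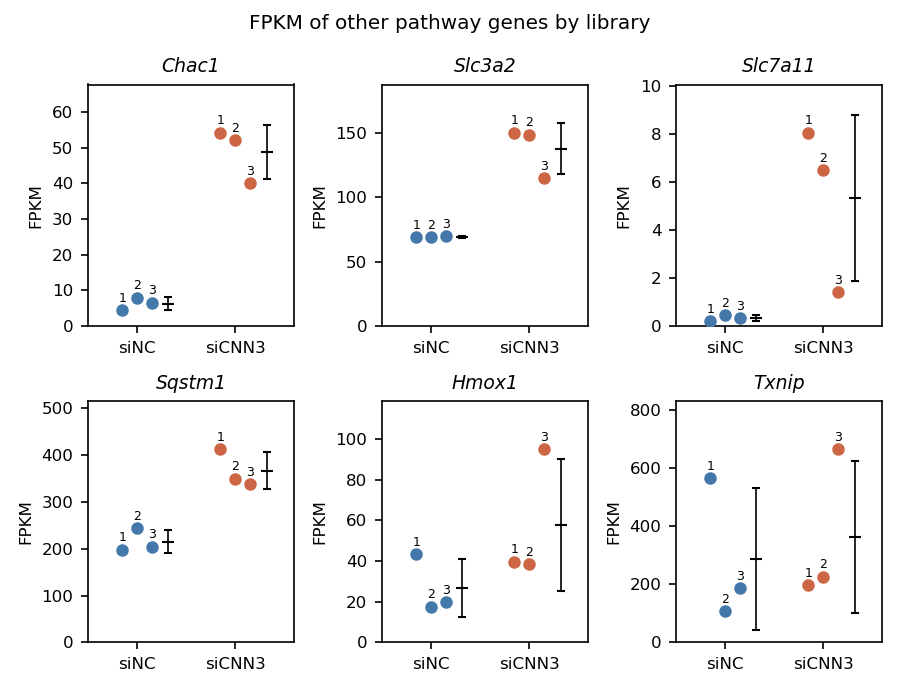
FPKM, on a linear axis from 0, of 6 genes outside the 40 members, with a point for each library (numbered by replicate) and the mean and SD of the 3 libraries of each group in black. Chac1, Slc3a2, Slc7a11 and Sqstm1 are higher in every siCNN3 library, while Hmox1 and Txnip (an inhibitor of thioredoxin, added after its values were seen) are highest in siCNN3 replicate 3 and, within siNC, in replicate 1.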

How the data were processed

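RNA of 6 C2C12 libraries, 3 siNC and 3 siCNN3, was sequenced. The authors deposited FPKM for 24023 Ensembl transcripts. The submitters' processing notes name Bowtie 0.12.2 and the builds mm8 and mm10 without their role, and the program that estimated FPKM and the read numbers are not given in the sources used here, so the depth is unknown. Library sums ran from 322621 to 355591 FPKM. Identifiers without version matched GENCODE M21 (GRCm38) for 23949 transcripts, and the other 74 were left out. FPKM were summed per gene symbol. Genes whose 6-library mean reached 0.5 FPKM were fitted as log2(FPKM + 1) with limma 3.58.1 in R 4.3.3 (trend = TRUE, p adjusted over all tested genes by Benjamini-Hochberg, threshold 0.05), a fit tested on simulated data. Fold changes on this scale understate those of low genes.

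The members and gene lists were chosen with earlier results of these data known. All members are named. Library values are given for members past the threshold, the 12 with the lowest p and 10 chosen for their role, and Gpx1, Idh2, Gsto1 and Gstz1 were added after their values were seen. Of the wider list, the called genes, Hmox1 and Slc7a11 are named, and Txnip, Sesn1, Sesn2, Sesn3 and Gstm7 were added after their values were seen. Promoter windows are from RefSeq (GRCm38.p6) and 50-base stretches were compared over all GENCODE M21 transcripts. Alternatives were another pseudocount (0.1), no filter or one at 5 FPKM, quantile normalization, scaling by median of ratios, limma without a trend, a block for the replicate number, sums without transcripts listed at 0 in some libraries, each library left out, and, chosen after seeing the data, siNC replicate 1 and siCNN3 replicate 3 left out together. Figures were made in Python 3.11.15 with matplotlib 3.10.9.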

Additional observations from a re-analysis of the deposited data

How the results depend on the processing

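Without a library, 0 to 3 members were called (the 3 without siCNN3 replicate 3 being Idh1, Gstm1 and Gstt1), 1 to 7 genes of the wider list and 20 to 605 of all genes, the highest counts being those without siCNN3 replicate 3, 13 to 20 members did not overlap (35.1 to 54.1% of members and 27.3 to 48.0% of all genes, since fewer libraries overlap less often by construction), the member median ran from -0.030 to 0.083, and Cnn3 from -1.46 to -0.95, called only without siCNN3 replicate 2 (limma adjusted p of 0.0475). Each such fit has fewer libraries, and the cause of the changes was not tested. With siNC replicate 1 and siCNN3 replicate 3 left out together, 3 members (Idh1, Gstm1 and Gstm5), 8 genes of the wider list and 844 of all genes were called, 24 members did not overlap (64.9%, against 61.7% of all genes), the member median was -0.021 and Nqo1 was -0.032. After quantile normalization the member median was -0.058 while that of all genes was -0.045, Gpx4 was -0.043 and Txnrd1 -0.058, and 199 genes were called higher and 93 lower (68.2% higher), while the deposited scale gave 200 and 39 (83.7% higher).

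With the replicate number as a block, 0 members, 1 gene of the wider list (Chac1) and 68 of all genes were called, against 1, 3 and 239 without it. Idh1 was then not called (limma adjusted p of 0.0558). In this balanced design the block cannot change a fold change, so the value of -1.22 for Idh1 is no sign of stability. The deviations of same-numbered libraries had correlations of -0.28, 0.31 and -0.025. Those of the replicates 2 went together and the others did not, so the numbers were not taken to pair the libraries. Sums without transcripts listed at 0 left 152 called genes. Signs also changed in members that were not called, with 1 library left out. Gclm ran from -0.10 to 0.41, being -0.023 without siNC replicate 3, -0.053 without replicate 1 of siCNN3 and -0.10 without its replicate 2. Without siNC replicate 1 the signs of Gsr (range -0.030 to 0.31), Nqo1 (range -0.040 to 0.39) and Keap1 (range -0.039 to 0.33) turned at the low end of their ranges, as did that of Txnrd1 (range -0.0046 to 0.10) without siNC replicate 2. The small differences of these genes and of Gpx4 also moved by over 1.5 times under quantile normalization. Of 372 refits of the named genes, 338 kept both direction and side of the threshold. Most of these genes were not called with all libraries, so for them this means staying uncalled. In 16 refits a call was lost, each time that of Idh1, Slc3a2 or Sqstm1. The depth is unknown, so no counting error could be set beside any value.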

Other observations

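Libraries of a group differed among themselves in part along the same genes in both groups. Deviations from the group mean, over all tested genes, had a correlation of 0.44 between siNC replicate 1 and siCNN3 replicate 3, of -0.45 between siNC replicate 2 and siCNN3 replicate 3, and of -0.025 between the replicates 3, so that siNC replicates 1 and 2 lay at opposite ends. These values share the group means and are a description. Txnip, which encodes an inhibitor of thioredoxin and was chosen after its values were seen, was high in siNC replicate 1 and siCNN3 replicate 3. It was at 564, 107, 187 FPKM over siNC against 197, 226, 665 FPKM over siCNN3 (log2 fold change 0.46, limma adjusted p of 0.781). Hmox1 was also highest in these 2 libraries within each group. Among the 37 tested antioxidant genes siCNN3 replicate 3 was the lowest of its group for 16 and the highest for 16, and siNC replicate 1 was the lowest for 20 and the highest for 2. The low values of siNC replicate 1 were not particular to these genes. Its median difference from the siNC mean of each gene, on the log2(FPKM + 1) scale, was -0.13 over the members and -0.11 over all tested genes, and 2131 of its transcripts were listed at 0, compared with 978 to 1333 in the other libraries. Gstm1, Mgst3 and Gpx8 were highest of the siCNN3 libraries in replicate 3. Gclm, Keap1 and Gsr were lowest of the siCNN3 libraries in replicate 3, and Keap1, Gsr and Nqo1 were lowest of the siNC libraries in replicate 1.

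In the wider list 18 of 80 tested genes did not overlap between the groups, 9 above and 9 below (22.5%, against 23.1% of all genes). Of these, 4 chosen after their values were seen are given here. Of the sestrins, a family of stress-induced proteins, Sesn1 and Sesn3 lay below siNC and Sesn2 above it, with log2 fold changes of -0.76, -0.27 and 1.00 (limma adjusted p of 0.0914, 0.431 and 0.0648). Gstm7, another mu class transferase, was at 8.30, 7.07, 7.32 FPKM over siNC against 2.81, 4.95, 4.14 FPKM over siCNN3. This gene had -0.81 in log2 fold change (limma adjusted p of 0.103). The other transferases of the wider list did not share this fall. Of its 5 tested transferases, Gstm7 included, 3 lay above 0 and 2 below it in log2 fold change. Only Gstm7 was entirely below siNC, and 0 of the 5 were called.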
